A study of Homo sapiens with 10 samples.

Results

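Input RNA and m6A peaks of 8 transcription factors of the foregut and lung lineages were compared between A549, a human lung adenocarcinoma cell line, and A549/DDP, its cisplatin-resistant counterpart (DDP is cisplatin). The 8 genes, FOXA1, FOXA2, FOXA3, HNF4A, GATA6, NKX2-1, SOX9 and CDX2, were chosen by name, as factors known for lineage choice and with earlier results of these data in view, out of 58037 gene identifiers in the input tables. Each line had 2 input RNA-seq libraries of poly(A) RNA and 2 m6A-seq libraries, in which RNA fragments that carry N6-methyladenosine were enriched with an antibody. Both lines were kept for at most 10 passages, no treatment is given in the labels of either, and how A549/DDP was made resistant is not given in the sources used here. The labels do not say whether replicates were separate cultures, so p-values measure the spread between these libraries, which may be technical. The A549/DDP input libraries are DDP by title and cell type, while their cell line label reads A549, and the labels' grouping by title was followed.

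The 4 input libraries held between 29225501 and 35286514 estimated counts, so that 3 counts corresponded to between 0.0846 and 0.101 CPM (counts scaled to library size). Genes with at least 1 count numbered from 15815 in A549/DDP replicate 2 to 19235 in A549 replicate 1. A second pair of A549 input libraries held 855034 and 982036 counts, of which 75.2% and 73.9% were mitochondrial, and no factor reached more than 5 counts in either. This pair was therefore used only as an alternative control. The keratins KRT7, KRT8 and KRT18 were high in both lines. KRT8 stood at 1452 and 3094 CPM in A549 and at 6862 and 6648 CPM in A549/DDP. Other epithelial markers were not alike: KRT19 had 29.4 and 41.1 CPM in A549 against 7.19 and 0 CPM in A549/DDP. EPCAM was low in both lines, at 1.91 and 5.67 CPM in A549 and 2.50 and 4.73 CPM in A549/DDP. The summed level of 6 endothelial markers was at most 0.709 CPM in the 4 libraries and that of 7 fibroblast markers ranged from 11.6 to 32.6 CPM, the highest in A549/DDP replicate 1. That of 7 immune markers ranged from 61.2 to 74.3 CPM, nearly all of it CD68, a lysosomal protein (2212, 2243, 1723 and 2427 counts), while PTPRC, the pan-leukocyte marker CD45, had at most 5 counts and CD3E none.

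FOXA proteins are pioneer factors of the forkhead family that open chromatin at the genes of endoderm organs, and GATA6 opens chromatin in early endoderm beside them. HNF4A is a nuclear receptor that drives hepatocyte and enterocyte gene programs, CDX2 specifies the intestine, and SOX9 marks progenitors of the distal lung, liver and gut. NKX2-1 is the defining factor of lung and thyroid epithelium and activates surfactant genes, and in mouse lung tumours its loss is known to let gastric and hepatic genes come on.

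The sequences before the start sites of the factors that passed the test are shown because the RNA differences concern these 3 genes, and because HNF4A is transcribed from a pair of alternative promoters, P2 (distal) and P1 (proximal). RefSeq (GRCh38.p14) gave 8 promoter windows for 6 of the 8 factors, and FOXA2 and SOX9 had none in the table. Each line below holds the 250 bases before the start site, 5′ to 3′ on the strand of the gene. Capitals mark exact matches, on either strand, to one of 6 kinds of motif: forkhead (TGTTTAC or TGTTTGC), HNF4 (CAAAGTCC or CAAAGGTC), GATA-binding (AGATAA), CDX (TTTATG or TTTATT), SOX (ACAATGG or ACAAAGG) and NKX2 (CAAGTG).
HNF4A P2, plus strand, chr20:44355449-44355698: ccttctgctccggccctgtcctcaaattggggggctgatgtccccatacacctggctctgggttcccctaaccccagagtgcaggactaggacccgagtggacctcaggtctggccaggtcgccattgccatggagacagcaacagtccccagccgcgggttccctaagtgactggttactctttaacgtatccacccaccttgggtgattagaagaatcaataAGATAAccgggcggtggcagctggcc
HNF4A P1, plus strand, chr20:44400989-44401238: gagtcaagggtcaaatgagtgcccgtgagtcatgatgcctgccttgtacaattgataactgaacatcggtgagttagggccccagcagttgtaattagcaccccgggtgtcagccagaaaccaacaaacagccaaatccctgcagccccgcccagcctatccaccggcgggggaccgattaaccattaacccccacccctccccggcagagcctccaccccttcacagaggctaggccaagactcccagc
FOXA1, minus strand, chr14:37595250-37595499: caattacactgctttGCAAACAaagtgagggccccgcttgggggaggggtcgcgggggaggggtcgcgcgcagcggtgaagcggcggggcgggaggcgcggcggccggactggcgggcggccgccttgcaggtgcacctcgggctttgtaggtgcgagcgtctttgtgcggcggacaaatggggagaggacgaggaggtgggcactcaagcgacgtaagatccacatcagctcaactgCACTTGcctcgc
GATA6, plus strand, chr18:22169339-22169588: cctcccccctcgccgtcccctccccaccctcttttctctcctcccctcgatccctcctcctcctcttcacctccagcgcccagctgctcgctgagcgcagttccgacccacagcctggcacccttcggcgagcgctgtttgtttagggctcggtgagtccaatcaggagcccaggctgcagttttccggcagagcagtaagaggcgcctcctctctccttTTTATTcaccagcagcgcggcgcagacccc

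The FOXA1 window held a forkhead match 235 bases and an NKX2 match 12 bases before the start. Among 35116 promoter windows of the same length, 6.09% held a forkhead match and 9.50% an NKX2 match. The P2 window of HNF4A held a GATA match 26 bases before its start, as 9.17% of all windows did, and the P1 window held no match to any of the 6 motifs. GATA6 held a CDX match 30 bases before its start, a motif found in 22.5% of windows. The CDX2 window (chr13:27969316-27969565), not printed, held a forkhead match 13 bases before the start as well as a GATA and a CDX match. Both NKX2-1 windows, also not printed, held a forkhead match, 241 and 130 bases before their start sites. The latter window held a GATA and an NKX2 match as well. HNF4 matches were present in 1.80% of all windows and SOX matches in 6.91%, and none of the 8 windows of the factors held either. A match describes letters in the window and no binding was measured here.

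HNF4A and FOXA1 RNA were higher in A549/DDP than in A549 and GATA6 RNA was lower, by the quasi-likelihood test of edgeR, its p-values adjusted by the Benjamini-Hochberg method over 16406 genes. Of the 7 factors that passed the filter on low counts, 2 were called higher and 1 lower at an adjusted p under 0.05, 3 in all, beside 14.9% of all tested genes called in either direction. CPM of the groups did not overlap for 6 of these 7 factors, but that was also true of 62.4% of all tested genes. NKX2-1, the remaining factor, did not pass the filter. With DESeq2, 5 of the 7 factors were called, beside 25.8% of all tested genes.

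**Figure D1:**
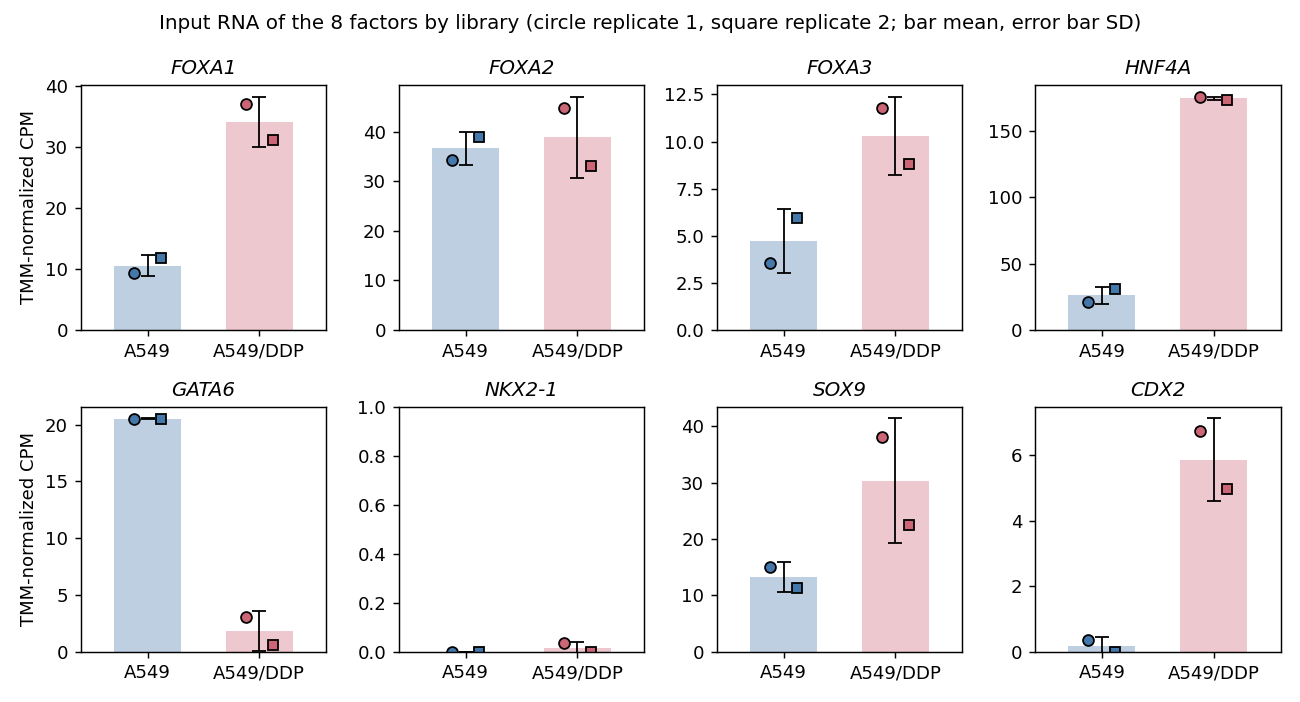
TMM-normalized CPM (y axis, linear from 0, a scale for each panel) of the 8 factors in A549 (blue) and A549/DDP (red) inputs. Circles are replicate 1, squares replicate 2, bars the mean and error bars the SD (n = 2 libraries). HNF4A and FOXA1 sit higher in both A549/DDP libraries, GATA6 lower, FOXA2 overlaps between the lines and NKX2-1 is at or next to 0.

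HNF4A (ENSG00000101076.16, chr20:44355699-44434596, plus strand) showed 704 and 1082 counts in A549 and 5202 and 6053 counts in A549/DDP. In CPM these were 21.4 and 30.5 against 176 and 174, so both A549/DDP libraries were far above both A549 libraries and almost equal to each other. The means were 26.0 ± 6.45 and 175 ± 1.40 CPM (SD, n = 2), a 6.72-fold difference (log2 fold change 2.75, SE 0.24, edgeR adjusted p = 0.0032). The level in TPM, which corrects for transcript length, was 10.5 ± 2.92 in A549 and 72.4 ± 0.559 in A549/DDP (SD, n = 2). It exceeded that of 45.0% of tested genes in A549 and of 84.1% in A549/DDP. No omission of a single library ended the call.

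FOXA1 (ENSG00000129514.5, chr14:37589552-37595249, minus strand), a pioneer factor that binds nucleosomal DNA ahead of other regulators, had 307 and 416 counts in A549 and 1099 and 1089 counts in A549/DDP. The CPM were 9.33 and 11.7 against 37.1 and 31.2, with no overlap. FOXA1 was 3.24-fold higher in A549/DDP (log2 fold change 1.70, SE 0.33, edgeR adjusted p = 0.0227). Without A549/DDP replicate 1 the adjusted p was 0.0503, with a log2 fold change of 1.55. On the TPM scale the A549/DDP libraries stood further apart, at 32.0 and 18.1 against 7.69 and 9.17 in A549. The mean transcript length that RSEM assigned to FOXA1 was 1900 bases in A549/DDP replicate 1 and 2812 bases in A549/DDP replicate 2. The call did not hold on TPM (limma on log2(TPM + 1), adjusted p = 0.0949).

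FOXA2 (ENSG00000125798.14, chr20:22580998-22585490, minus strand), which acts beside FOXA1 in endoderm, had 1127 and 1383 counts in A549 and 1324 and 1154 in A549/DDP. The CPM of 34.3 and 39.0 overlapped those of 44.7 and 33.1, the A549/DDP libraries holding both the highest and the lowest value. The log2 fold change was 0.09 (SE 0.27, edgeR adjusted p = 0.879).

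FOXA3 (ENSG00000170608.2, chr19:45864326-45873797, plus strand), the FOXA member best known from liver and gut, had 116 and 210 counts in A549 and 349 and 308 in A549/DDP. Its CPM were 3.53 and 5.92 against 11.8 and 8.83 and did not overlap, but the difference did not pass the test (log2 fold change 1.12, SE 0.61, edgeR adjusted p = 0.265). Within the family, FOXA2 had the highest level per length in A549 (24.7 ± 4.63 TPM), ahead of FOXA1 (8.43 ± 1.05 TPM) and FOXA3 (3.98 ± 1.79 TPM; SD, n = 2). In A549/DDP, FOXA2 at 26.2 ± 5.36 TPM and FOXA1, whose libraries had 32.0 and 18.1 TPM, were within each other's spread, and FOXA3 stood at 8.53 ± 1.64 TPM.

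GATA6 (ENSG00000141448.8, chr18:22169589-22202528, plus strand), a zinc finger factor of early endoderm, had 676 and 726 counts in A549 and 91 and 19 counts in A549/DDP. The CPM were 20.5 and 20.5 against 3.07 and 0.545, so the A549 libraries were equal at this precision while the A549/DDP libraries differed widely and both lay below. GATA6 was 11.4-fold lower in A549/DDP (log2 fold change -3.51, SE 0.85, edgeR adjusted p = 0.0439). The size depended on the A549/DDP library used, with a log2 fold change of -2.75 without replicate 2 and -5.25 without replicate 1, and the call held in both cases. It did not hold with limma on log2(TPM + 1) (adjusted p = 0.0547), nor with both pairs of A549 inputs (adjusted p = 0.0649) or against the second pair alone (log2 fold change -1.19, adjusted p = 0.662). GATA6 was the second of the 8 factors in A549 by TPM (12.5 ± 2.21) and the seventh in A549/DDP (1.44 ± 1.41; SD, n = 2). Its antisense RNA GATA6-AS1 was counted 25 times in A549 replicate 1 and not in the other 3 libraries, each of which allows up to 3 counts.

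SOX9 (ENSG00000125398.5, chr17:72121020-72126416, plus strand), an HMG-box factor of progenitor cells, had 497 and 401 counts in A549 and 1132 and 787 in A549/DDP. CPM of 15.1 and 11.3 against 38.2 and 22.6 did not overlap, and A549/DDP replicate 1 was the highest. The 2.30-fold difference did not pass the test (log2 fold change 1.20, SE 0.39, edgeR adjusted p = 0.0935). It passed without A549 replicate 1 (adjusted p = 0.0440) and without A549/DDP replicate 2 (adjusted p = 0.0443).

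CDX2 (ENSG00000165556.9, chr13:27960918-27969315, minus strand), the homeobox factor of intestinal identity, had 12 and 0 counts in A549 and 200 and 173 in A549/DDP. The CPM were 0.365 and 0 against 6.75 and 4.96, so both A549/DDP libraries were above both A549 libraries. The log2 fold change of 4.98 had an SE of 1.87 and did not pass the test (edgeR adjusted p = 0.126). Without A549 replicate 1, the library that held its 12 counts, the fitted value was 10.6 with an adjusted p of 0.0041, a value that depends on the prior count as the remaining A549 library was at 0.

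NKX2-1 (ENSG00000136352.17, chr14:36516397-36520232, minus strand) was counted 0 times in both A549 libraries, once in A549/DDP replicate 1 and not in replicate 2. A count of 0 allows up to 3 counts, which is 0.0912 and 0.0846 CPM in the A549 libraries and 0.0860 CPM in A549/DDP replicate 2, and the single count was 0.034 CPM. No difference was detectable at this depth. Of 20 lung epithelial markers, 11 were at 0 in all 4 libraries, among them SFTPC, SFTPA1 and SCGB1A1, which encode surfactant proteins and the club cell secretory protein. Others were detected and 4 passed the filter. ABCA3 (given below) and NAPSA, with 26 and 0 counts in A549 and 66 and 62 in A549/DDP, had positive log2 fold changes. SFTPD, with 7 and 29 counts against 11 and 0, and AGER, with 85 and 99 against 69 and 42, had negative ones.

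**Figure D2:**
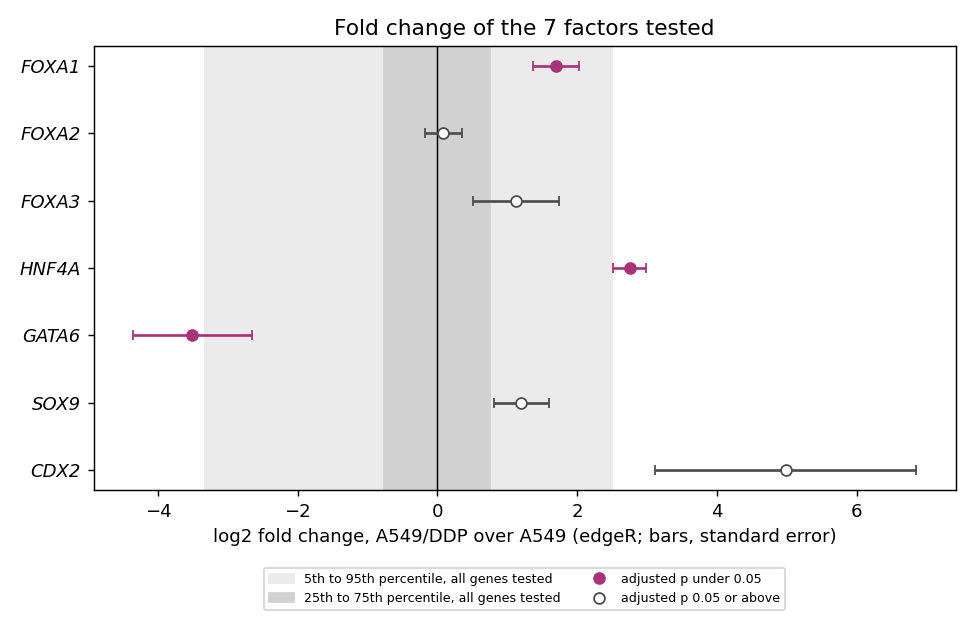
Log2 fold change of A549/DDP over A549 (x axis) for the 7 tested factors, points with standard errors from edgeR, over the 25th to 75th and 5th to 95th percentiles of all 16406 tested genes (grey bands). Filled points had an adjusted p under 0.05. HNF4A and CDX2 lie above the 95th percentile (2.50) and GATA6 below the 5th percentile (-3.32), CDX2 with the widest error.

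By TPM the order in A549 was FOXA2, GATA6, HNF4A, FOXA1, SOX9, FOXA3, CDX2 and NKX2-1. GATA6 and HNF4A overlapped, as did HNF4A and FOXA1, SOX9 and FOXA3, and CDX2 and NKX2-1. In A549/DDP the order was HNF4A, FOXA2, FOXA1, SOX9, FOXA3, CDX2, GATA6 and NKX2-1, with overlap between FOXA2 and FOXA1 and between SOX9 and FOXA3. HNF4A thus moved from the third to the first place and GATA6 from the second to the seventh.

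Other transcription factors and the products of hepatic and intestinal cells were read from 9 lists. Of 122 listed genes, 71 passed the filter, 18 of them were called higher in A549/DDP and 3 lower, 21 in all, beside 1124 higher and 1313 lower among all 16406 tested genes (14.9% in either direction). The lists were chosen with earlier results known, so these counts are no independent support. The median log2 fold change of all 16406 tested genes was close to 0 (-0.0016).

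Among 26 foregut and lung transcription factors, 18 passed the filter, of which 4 were called higher, 2 lower and 12 not called. EHF, an ETS factor of epithelia, rose most, from 1.85 and 5.42 CPM in A549 to 56.6 and 63.7 CPM in A549/DDP (log2 fold change 4.04, SE 0.55, edgeR adjusted p = 0.0090). CEBPA, a regulator of hepatocyte and alveolar type II maturation, rose by a log2 fold change of 2.49 (adjusted p = 0.0160). The Notch target HES1 rose by 2.36 (adjusted p = 0.0210) and ELF3, another epithelial ETS factor, by 1.24 (adjusted p = 0.0098). TEAD1, the partner of YAP, fell by 1.59 on the log2 scale (adjusted p = 0.0051) and ETV4, an FGF-responsive factor of lung buds, by 0.99 (adjusted p = 0.0327). GATA4, the closest relative of GATA6 in endoderm, had 2.64 and 6.07 CPM in A549 and 8.40 and 4.50 CPM in A549/DDP, which overlap.

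Of 15 hepatic and intestinal transcription factors, 10 passed the filter, 1 was called higher and 9 were not called, beside 14.9% of all tested genes called. The gene called was NR1H4, the bile acid receptor, which rose from 0.821 and 0.705 CPM to 12.3 and 6.68 CPM (log2 fold change 3.63, SE 0.82, edgeR adjusted p = 0.0365). NR5A2, a nuclear receptor of the same list, went the other way, from 24.9 and 24.5 CPM to 0.0675 and 3.81 CPM. It was not called (log2 fold change -3.66, SE 1.35, edgeR adjusted p = 0.121).

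Of 25 hepatic and intestinal markers, 22 passed the filter, 9 were called higher and 13 were not called (median log2 fold change of the 22, 2.33). This median does not describe both A549/DDP libraries, as 9 of the genes not called had 0 counts in A549/DDP replicate 2 (given below). TFF1, a gastric trefoil peptide, was at 0 in both A549 libraries and had 80 and 160 counts in A549/DDP, at least 84.7-fold higher when set against 3 counts over both A549 libraries (edgeR adjusted p = 0.0406). VIL1, the villin of intestinal microvilli, had 1 and 1 counts in A549 and 523 and 666 in A549/DDP. The ratio of its CPM was 630, with a 95% counting interval of 174 to 5206 (exact Clopper-Pearson, counting error only; edgeR adjusted p = 0.0029). LGALS4, an intestinal galectin, had 5 and 3 counts against 184 and 299, and VTN, the hepatic plasma protein vitronectin, had 214 and 220 counts against 4011 and 3790 (log2 fold change 4.26, SE 0.24, adjusted p = 0.0016). The other markers called higher were the 3 fibrinogen chains FGA, FGB and FGG, the intestinal cadherin CDH17 and the mucin MUC13, named after their values were seen.

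**Figure D3:**
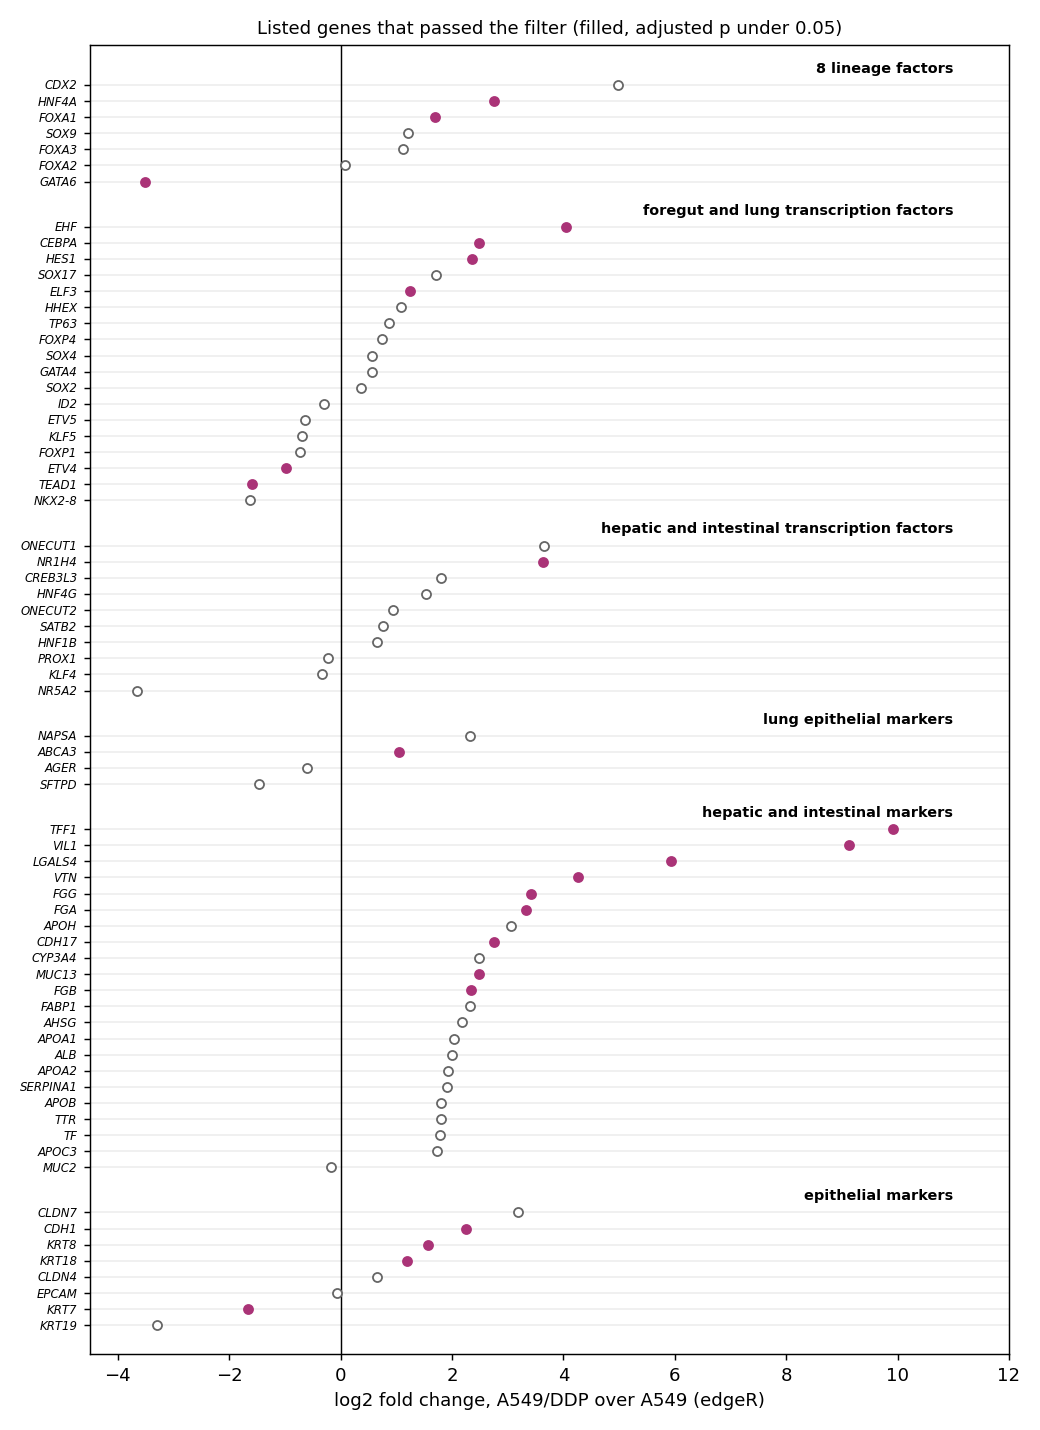
Log2 fold change of A549/DDP over A549 (x axis) of each gene that passed the filter in 6 of the lists, one gene per line, ordered within its list. Filled points had an edgeR adjusted p under 0.05. The 9 called hepatic and intestinal markers all lie to the right of 0, and the fitted values of TFF1 and VIL1, with 0 and 2 counts in A549, depend on the prior count.

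The hepatic markers were not alike in the A549/DDP libraries, a split seen in the values and not planned. APOA1, APOA2, APOB, APOC3, TTR, TF, AHSG, CYP3A4 and FABP1, encoding apolipoproteins and other liver products, together had 862 and 269 counts in A549, 3828 and 0 in replicates 1 and 2 of A549/DDP. ALB, encoding albumin, had 825 and 272 counts in A549 and 3841 and 25 counts in A549/DDP. HNF4A, by contrast, was about as high in A549/DDP replicate 2 as in replicate 1. FGA (350 and 304 CPM) and VTN (135 and 109 CPM) were somewhat lower in replicate 2. The liver gene APOH lay between, with 16.7 and 9.09 CPM in replicates 1 and 2 of A549/DDP. Neither ALB nor any of the 9 genes summed above was called, with edgeR adjusted p-values from 0.498 (ALB) to 0.685 (APOC3). The part of this library difference in the results above was not tested beyond the values without each library.

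Of 20 lung epithelial markers, 4 passed the filter and only ABCA3, a lipid transporter of alveolar type II cells, was called (45.0 and 46.5 CPM in A549, 96.3 and 91.8 CPM in A549/DDP, log2 fold change 1.04, edgeR adjusted p = 0.0188). Of 8 epithelial markers, 3 were called higher and 1 lower. E-cadherin (CDH1) rose by a log2 fold change of 2.26 (adjusted p = 0.0220), KRT8 by 1.57 (adjusted p = 0.0324) and KRT18 by 1.18 (adjusted p = 0.0146), while KRT7 fell by 1.66 (adjusted p = 0.0117). No call was made by edgeR among 8 neighbouring and antisense RNAs of the factors, of which 3 passed the filter, or among the fibroblast, immune and endothelial markers, of which 4, 2 and 0 passed. In these 4 lists, 0 genes had an unadjusted edgeR p under 0.05 and 0 were called by DESeq2.

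The listed genes whose profile over the 4 inputs was most like that of each factor were found from the root mean square difference of centred log2(CPM + 1) values among 68 genes. ELF3 (0.20) and KRT18 (0.23) were nearest to FOXA1, and HHEX (0.095) and ONECUT2 (0.096) to FOXA3. For HNF4A they were LGALS4 (0.27) and CDH17 (0.28), and for CDX2 they were MUC13 (0.10) and CDH17 (0.19). The 1 added to CPM shrinks the differences of genes near 0 in A549, such as LGALS4 and CDX2. Their fitted log2 fold changes were 5.92 and 4.98, against 2.75 for HNF4A, 2.76 for CDH17 and 2.49 for MUC13. KRT19 (0.66) and KRT7 (0.91) were nearest to GATA6 and less close than the others, FOXA2 was nearest to MUC2 (0.23) and ID2 (0.25), and SOX9 to the low-count genes DCN (0.098) and NAPSA (0.24). Likeness over 4 libraries is a description, and the genes share the libraries' depth.

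The m6A peaks of the factors were read from a list of enriched RNA regions for each of the 4 m6A-seq libraries, with 26320 and 14576 peaks for A549 and 27244 and 10661 for A549/DDP. A peak may span an intron and then has several blocks. FOXA1, FOXA2, FOXA3, HNF4A, GATA6 and SOX9 had a peak in both A549 lists, beside 27.1% of tested genes. FOXA1, FOXA2, HNF4A and SOX9 had one in both A549/DDP lists, beside 19.5%. Both shares are over all tested genes, not over genes matched for RNA level or transcript length. NKX2-1 and CDX2 had none in any list. A peak list gives no level of methylation, and with 2 lists per line the difference between lines was not tested.

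GATA6 had 3 and 4 peaks in the A549 libraries, with lowest deposited p-values of 0.0018 and 3.6e-07, and none in either A549/DDP library. Of its regions, 3, chr18:22171392-22171542, chr18:22182969-22200881 and chr18:22200980-22201180 (hg38), were present in both A549 lists and neither A549/DDP list, as was a peak for 4.62% of tested genes. Its RNA was also the lowest of the 6 there, with 91 and 19 input counts, so that fewer modified transcripts and fewer transcripts cannot be told apart. FOXA3 had a peak in both A549 lists and in A549/DDP replicate 1, where the deposited p-value was 0.024, but not in A549/DDP replicate 2.

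HNF4A had a region of peaks in all 4 lists, chr20:44429573-44431861, that begins 73874 bases after the gene's first start site and lies in its last part. Its peaks covered 1993 and 1096 bases in the A549 lists and 1897 and 1000 bases in the A549/DDP lists, and 18.1% of the 3038 bases covered in any list were covered in all 4. Further regions were listed in A549/DDP alone, 2 in replicate 1 and 1 in replicate 2, while no joined region was in both A549/DDP lists only. By bases, however, 101 were covered in both A549/DDP lists and neither A549 list, and 349 in both A549 lists and neither A549/DDP list. The 101 bases lie in the region chr20:44419807-44424296, which a peak of A549 replicate 1 starting at position 44424197 joins only by its first base. The first of the further regions began at chr20:44401441, in A549/DDP replicate 1 (deposited p-value 0.0026), shortly after the P1 start site at position 44401239 that follows the window printed above. It was found in 1 of the 4 libraries. HNF4A RNA was 6.72-fold higher in A549/DDP. For the regions listed there alone, more modified transcripts and more transcripts cannot be told apart.

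FOXA2 had the most shared cover, with 1331 of 2014 bases (66.1%) in all 4 lists and lowest deposited p-values between 1e-08 and 1.6e-05. FOXA1 shared 847 of 1739 bases (48.7%) and SOX9 450 of 1497 bases (30.1%). The FOXA1 region chr14:37590978-37593879, the FOXA2 region chr20:22581250-22584300 and the SOX9 region chr17:72123930-72124777 were each present in all 4 lists. FOXA1 had 2 peaks in each of 3 libraries and 3 in A549/DDP replicate 2.

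**Figure D4:**
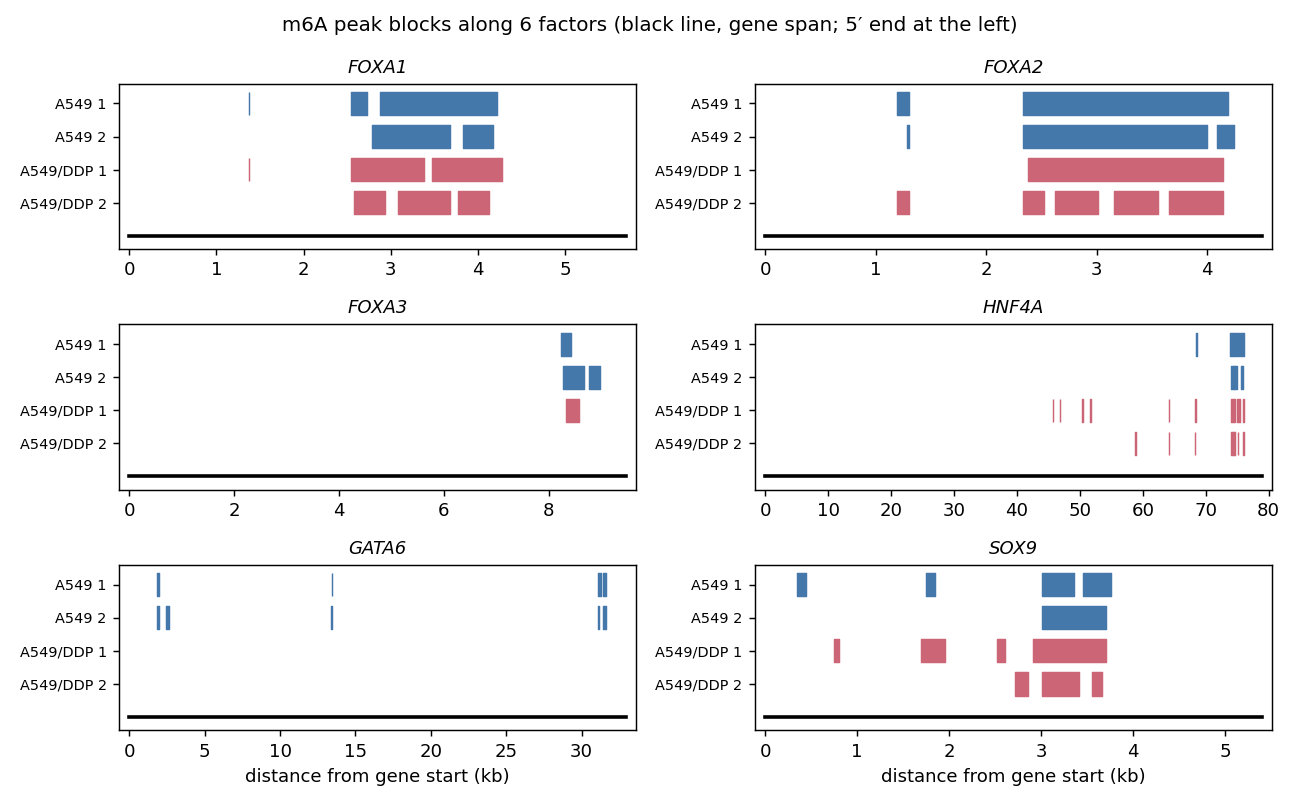
Blocks of m6A peaks (boxes) along 6 factors, by distance from the gene's start in kb (x axis) in the 4 m6A-seq libraries (rows), A549 in blue and A549/DDP in red. The black line is the gene span and a peak's height carries no meaning. FOXA1, FOXA2, HNF4A and SOX9 have blocks in all 4 rows, GATA6 in the A549 rows only, and FOXA3 in 3 rows.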

How the data were processed

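Human A549 and A549/DDP inputs (2 libraries each), 2 further A549 inputs and 4 m6A-seq libraries were used, grouped by the labels. Poly(A) RNA was sequenced from strand-specific libraries. The authors deposited RSEM gene tables with expected counts, TPM and FPKM values and a transcript length, and peak lists with a p-value for each peak, which the lists do not describe as raw or adjusted. STAR, RSEM, bedtools and hg38 are named in the submitters' processing notes. The peak caller and the strand setting of counting are not given in the sources used here. Expected counts were rounded, filtered (filterByExpr), scaled (TMM) and tested with edgeR 4.0.16 in R 4.3.3, without a replicate block, with Benjamini-Hochberg adjustment over 16406 genes and a threshold of 0.05. SE is the log2 fold change divided by the root of F. Alternatives used DESeq2 1.42.0, limma 3.58.1, other filters, scalings, units and controls, and each library left out. The labels do not say that same-numbered libraries share a batch, so numbers were not taken as pairs. Over all tested genes the deviations of same-numbered libraries had a correlation of 0.021. The 9 liver genes summed above were nevertheless higher in replicate 1 of both lines (862 against 269 counts in A549, 3828 against 0 in A549/DDP). Whether numbers mark a shared batch was not tested. Regions were peak blocks joined where they overlapped by at least 1 base. Gene positions and promoter windows are RefSeq's (GRCh38.p14). Intervals and floors cover counting error only. The factors and gene lists were chosen with earlier results of these data known, and 1 gene of the lists is not reported here. Named were the 8 factors and, from each list, up to 4 genes called in each direction with the largest fold changes. Other genes named, such as GATA4, SFTPC and the apolipoproteins, were chosen after their values were seen. The A549 m6A-seq replicate numbers follow the labels, which disagree with the file names.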

Additional observations from a re-analysis of the deposited data

How the results depend on the processing

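Of 7 tested factors, 3 were called by the edgeR fit, 5 without a filter beyond 1 count, 5 with DESeq2, 1 each with limma on log2(TPM + 1), log2(TPM + 0.1) and log2(FPKM + 1), and 1 against the second pair of A549 inputs, which is shallow. It was 0 with limma on log2(TPM + 1) without a filter, a fit that called 0 of 22802 genes although 4519 had an unadjusted p under 0.05. Leaving out 1 library gave 2 to 5 factors. HNF4A kept its direction and its call in 15 of 16 alternatives (highest adjusted p = 0.0764). FOXA1 and GATA6 were each called in 10 of 16, SOX9 in 6 of 16, CDX2 in 3 of 15, and FOXA2 and FOXA3 in none of 16. FOXA1, FOXA3, HNF4A, GATA6, SOX9 and CDX2 kept their direction in the alternatives run. FOXA2 turned to a log2 fold change of -0.0047 with both pairs of A549 inputs, -0.020 without A549 replicate 1 and -0.17 without A549/DDP replicate 1, and ranged up to 0.28 without 1 library. Of the other listed genes, 21 were called, 0 with limma without a filter and 10 with both pairs of A549 inputs, and 23 to 29 without 1 library. With the replicate block, 4 factors and 24 other listed genes were called, SOX9 being the factor gained (adjusted p = 0.0441), and the genes called overall rose from 2437 to 3536. The median of all genes moved to 0.80 on the log2 scale against the second pair and to -0.20 without A549/DDP replicate 1.

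With only peaks at a p-value of 1e-05 or below, 1 factor (FOXA2) had a peak in both A549 lists and 0 in both A549/DDP lists, 0 regions were in both A549 and neither A549/DDP list, and 0 were in all 4. With a peak in either library of a line enough, the regions in A549 alone, in A549/DDP alone and in both lines numbered 6, 4 and 7, against 3, 0 and 4. Without 1 library, regions in A549 alone ranged from 3 to 6, regions in A549/DDP alone from 0 to 3 and regions shared by the remaining lists from 4 to 6, and factors with a peak numbered 6 for A549 and 4 to 5 for A549/DDP. When peaks had to share 50% of the shorter one, 1 region, at HNF4A, was in both A549/DDP lists and neither A549 list. Ordering by FPKM in place of TPM left the 8 ranks of both lines as they were. The cause of these differences was not tested. With 2 libraries per line, spread is estimated from few values.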
